A study of Homo sapiens with 8 samples.

Results

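The genes studied were 8 transcription regulators of the developing kidney, PAX2, PAX8, LHX1, EYA1, SIX2, SALL1, WT1 and OSR1, and the chromatin accessibility around them in HEK293 cells before and after hyperosmotic stress. Peaks were taken where they overlapped the RefSeq gene body or 50 kb on either side of it. This gave 87 peaks of 129536 in the table: 21 at PAX2, 17 at PAX8, 4 at LHX1, 22 at EYA1, 7 at SIX2, 4 at SALL1, 8 at WT1 and 4 at OSR1. All 87 passed the filter on low counts, with a lowest single count of 8.

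HEK293 is an adherent line made from human embryonic kidney tissue, and the cells used here carry eGFP-YAP per the genotype field, whereas the sample titles name HEK293 alone and the library names hold the letters wt. Omni-ATAC-seq was the assay: a transposase cuts the open chromatin of isolated nuclei and tags the fragments for sequencing. The vehicle group held 4 libraries from cells at 0 h, and the sorbitol group held 4 libraries from cells kept in 0.2 M sorbitol for 1 h. No vehicle library was taken at 1 h, so sorbitol cannot be told apart from the added hour. Both groups have the same genotype entry and, per the series' design text, had been serum-starved for 1 h before treatment. Each library came from 50000 cells. No label says whether the libraries came from separate cultures or whether the line is a single clone, so p-values measure the spread between these libraries, which may be technical.

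In the embryo, OSR1, PAX2, PAX8 and LHX1 act early, in the intermediate mesoderm and the nephric duct that arises from it. EYA1, SIX2, SALL1 and WT1 act in the nephron progenitors, the mesenchymal cells that renew themselves and give rise to the nephron. ATAC-seq reads whether the DNA of such a gene is open to an enzyme and does not read its transcription.

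Markers of cell types were looked at as a description, which does not establish the identity of the line. Peaks lay within 1 kb of an end of all 6 genes listed as expressed in HEK293 cells (VIM, CDH2, KRT8, KRT18, NEFL and NEFM). Such peaks are common: 59.1% of all RefSeq promoter windows had a peak within 1 kb of the start. None lay at the markers of adrenal cortex, lymphocytes or red cells, and 1 of 3 markers each of liver (APOA1), muscle (MYOD1) and endothelium (PECAM1) had a peak. Library totals ran from 11522266 counts in sorbitol 1 to 19831471 in vehicle 3. Vehicle 4 and sorbitol 4 stood apart from their groups over 477 peaks outside the autosomes, X and Y, each with a mean of at least 50 counts. The median log2 deviation there was 0.34 in vehicle 4 against -0.29 to -0.07 in the other vehicle libraries. In sorbitol 4 it was -0.30 against 0.08 to 0.28 in the other sorbitol libraries. Counts are therefore also given without vehicle 4 and sorbitol 4.

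Sequences just upstream of starts inside and outside peaks are shown first. RefSeq promoter windows (GRCh38.p14) were at hand for 4 of the 8 genes, SIX2, PAX8, PAX2 and WT1. The 250 bases before the start are printed 5′ to 3′ on the gene's strand, with CG dinucleotides in capitals, for 3 starts inside a peak and for the starts of PAX2 and PAX8 outside any peak. WT1 has 3 further RefSeq starts, all outside peaks, whose windows are not printed.
SIX2, inside a peak (chr2:45009453-45009702, minus strand): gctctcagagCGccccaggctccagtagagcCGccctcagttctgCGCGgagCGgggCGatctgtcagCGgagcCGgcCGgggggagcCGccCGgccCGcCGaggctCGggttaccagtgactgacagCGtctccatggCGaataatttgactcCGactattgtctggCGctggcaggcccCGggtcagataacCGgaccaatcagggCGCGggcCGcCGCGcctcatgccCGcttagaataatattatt
PAX2 inner start, inside a peak (chr10:100745332-100745581, plus strand): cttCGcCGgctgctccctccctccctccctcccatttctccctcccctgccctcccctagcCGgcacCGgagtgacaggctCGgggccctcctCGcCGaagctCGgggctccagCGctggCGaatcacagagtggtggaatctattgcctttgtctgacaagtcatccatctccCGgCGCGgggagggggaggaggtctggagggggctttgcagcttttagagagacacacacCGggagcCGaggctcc
WT1 outermost start, inside a peak (chr11:32435540-32435789, minus strand): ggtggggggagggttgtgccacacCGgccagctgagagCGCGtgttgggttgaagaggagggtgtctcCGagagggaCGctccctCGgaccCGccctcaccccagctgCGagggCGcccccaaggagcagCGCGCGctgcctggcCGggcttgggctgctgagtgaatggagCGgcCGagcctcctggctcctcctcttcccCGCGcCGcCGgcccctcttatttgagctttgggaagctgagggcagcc
PAX2 outermost start, outside any peak (chr10:100735146-100735395, plus strand): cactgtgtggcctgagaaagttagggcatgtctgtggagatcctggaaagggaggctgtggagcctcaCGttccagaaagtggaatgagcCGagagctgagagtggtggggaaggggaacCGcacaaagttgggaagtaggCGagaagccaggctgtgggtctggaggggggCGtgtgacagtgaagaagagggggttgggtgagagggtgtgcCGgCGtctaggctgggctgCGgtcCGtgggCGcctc
PAX8, outside any peak (chr2:113278922-113279171, minus strand): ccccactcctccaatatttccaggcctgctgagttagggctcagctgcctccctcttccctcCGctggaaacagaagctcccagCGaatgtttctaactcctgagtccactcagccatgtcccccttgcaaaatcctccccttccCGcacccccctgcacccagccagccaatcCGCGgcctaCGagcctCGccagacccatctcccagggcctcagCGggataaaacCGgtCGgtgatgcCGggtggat

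The 3 windows inside peaks held 26 CG dinucleotides at SIX2, 15 at PAX2 and 19 at WT1. The 2 printed windows outside peaks held 10 at the outermost PAX2 start and 11 at PAX8, and the 3 WT1 windows that are not printed held 13, 18 and 3, so the counts inside and outside peaks overlapped. Over all 35116 promoter windows, those that overlapped a peak held a median of 21, and those that did not held a median of 3. The GC box GGGCGG, searched like the other motifs on both strands, occurred 2 times at SIX2 and 1 time at WT1, in windows inside peaks. Of all windows of this length 42.6% held it, 65.8% of those that overlapped a peak and 17.2% of those that did not. CCAAT occurred 1 time at SIX2 and 2 times at PAX8, against 32.0% of all windows. The TonE core TGGAAA, part of the site bound by the osmotic stress factor NFAT5, occurred 2 times at PAX8 and 1 time at the outermost PAX2 start. It was in 18.0% of all windows and in 23.4% of those outside peaks. The TEAD motif GGAATG, which shares GGAA with the TonE core, occurred 1 time at the outermost PAX2 start. It was in 11.9% of all windows and in 14.7% of those outside peaks. The AP-1 motif TGANTCA (6.57% of windows) and the TATA box TATAAA (10.7%) were in none of the 5 printed windows. These motif counts are for the printed windows. Of the 3 WT1 windows that are not printed, chr11:32400401-32400650 held AP-1, TEAD and the TonE core 1 time each. It held no other of these motifs, and the remaining WT1 windows held none of them.

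Genes were compared at baseline by their strongest peak at a start or end. OSR1 and PAX8 had none there and were placed by their strongest body peak. On this mixed measure, SIX2, SALL1, OSR1 and PAX2 were the most accessible. EYA1 came last, at the peak near an end of the gene, although a stronger peak lay inside the gene. The reference gives no strand for EYA1, so it is not known whether this end is its start. Placed by its strongest body peak, as OSR1 and PAX8 were, EYA1 would come above WT1, PAX8 and LHX1. Levels between peaks are given as mean vehicle CPM (counts brought to a common library size, here with edgeR's TMM factors) per kb of peak, not corrected for DNA copy number, with their percentile among all peaks of the table. The median of all peaks was 7.21 CPM per kb, and the top decile began at 21.7. Of the 87 peaks, 11 were in the top decile, 37 others were above the median and 39 were below it. The least accessible of the 11 was this EYA1 peak inside the gene, at percentile 90.1, and the most accessible below them was the WT1 start peak at percentile 88.9.

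SIX2, the homeobox factor that keeps nephron progenitors undifferentiated, had the most open start. Its start peak (chr2:45008978-45010519) had 43.2 CPM per kb ± 3.13 (SD, n = 4), at percentile 98.0. SALL1, a zinc-finger factor that works with SIX2 in nephron progenitors, followed with a peak over 1 end of the gene (chr16:51151345-51153150) at 29.3 ± 1.86, percentile 94.6. For SALL1, LHX1, EYA1 and OSR1 the reference gives no strand, so a peak at either gene end was counted. OSR1, the odd-skipped factor of the early intermediate mesoderm, had no peak within 1 kb of either end. Its strongest peak lay inside the gene (chr2:19347570-19348572), 2697 bp from an end and at the microRNA gene MIR4757, with 25.8 ± 0.817, percentile 92.8.

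PAX2, a paired-box factor of the nephric duct and the mesenchyme induced by it, had its open region at the inner of its RefSeq starts. Peaks covered or adjoined that start (chr10:100743613-100744809 and chr10:100744911-100746491), the first with 23.3 CPM per kb ± 1.29, percentile 91.2. The outermost PAX2 start had no peak within 1 kb, and the nearest lay 5250 bp away. WT1, the zinc-finger factor of nephron progenitors and podocytes, had a peak over its outermost start (chr11:32434432-32435847) with 20.6 ± 2.35, percentile 88.9. This peak also covers an end of the antisense gene WT1-AS, and ATAC-seq carries no strand.

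PAX8, the paired-box relative of PAX2, had no peak within 1 kb of its annotated start, and the nearest lay 4132 bp away. The strongest peak in its body (chr2:113272972-113273514) had 13.5 CPM per kb ± 1.65, percentile 78.5. The strongest peak of the PAX8 window (chr2:113198630-113199559) had 24.0 CPM per kb but lies inside the neighbouring gene PSD4. LHX1, a LIM-homeobox factor of the nephric duct and renal vesicle, had a peak over an end (chr17:36935623-36937355), shared with LHX1-DT, of 8.67 ± 0.327, percentile 61.0. EYA1, a phosphatase and coactivator that partners SIX2 and its relatives, had a peak 312 bp from an end (chr8:71547398-71547782) with 5.66 ± 0.745, percentile 27.8. This peak also lies at an end of the gene LOC102724772. The order of these 8 levels is a description and mixes start or end peaks with body peaks for OSR1 and PAX8. The ranges of the 4 vehicle libraries overlapped between neighbours for OSR1 and PAX2 and for PAX2 and WT1, and for no other neighbouring pair.

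**Figure D1:**
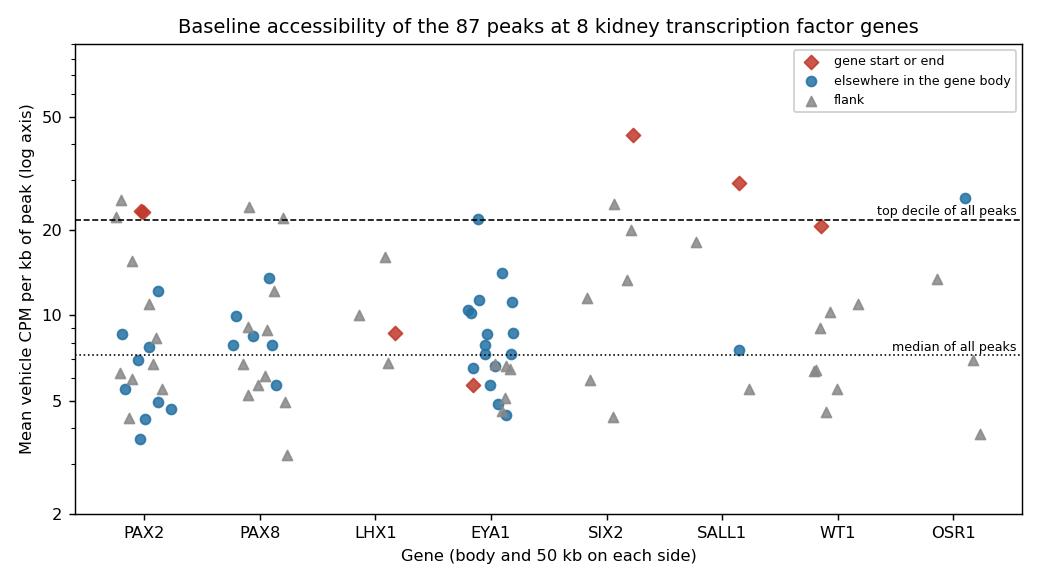
Each point is a peak, placed by gene on the horizontal axis and by mean vehicle CPM per kb on a logarithmic vertical axis, with the median and top-decile boundary of all peaks as lines. The SIX2 start peak is the highest at 43.2, and the EYA1 peak nearest a gene end lies below the median at 5.66.

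The share of a window's summed vehicle CPM held by its largest peak was 83.5% at SALL1, 62.0% at SIX2, 61.3% at OSR1, 57.1% at WT1, 41.9% at LHX1, 22.9% at PAX2, 22.2% at EYA1 and 22.1% at PAX8. These shares are over windows with different numbers of peaks. In the LHX1 window the largest peak lies at an end of the neighbouring gene AATF, and in the PAX8 window it lies inside PSD4. EYA1 had a weak peak at its end and its signal spread over 22 peaks, 17 of them inside the gene. Its strongest peak (chr8:71361511-71362457) lies inside the gene, 164079 bp from the nearer end, with 21.8 CPM per kb, percentile 90.1.

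After sorbitol, 13 of the 87 peaks rose, 11 fell and 63 were not called by edgeR's quasi-likelihood test (Benjamini-Hochberg adjusted p under 0.05 over 129487 tested peaks). The share that rose was 14.9%, against 16.0% of all tested peaks, and the share that fell was 12.6%, against 13.1%. These shares are near the background of the table. The median log2 fold change (sorbitol over vehicle) was -0.0023 over the 87 peaks and 0.0117 over all peaks. At least 2-fold, 2 peaks rose and 0 fell, against 5.27% and 0.881% of all tested peaks. The unadjusted p was under 0.05 for 30 of the 87. The 4 sorbitol libraries lay all above or all below the 4 vehicle libraries in 16 of 87 peaks (18.4%), against 26.3% of all peaks in TMM-scaled CPM. With CPM from library totals alone the count was also 16, against 26.8%.

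The counts depended on scaling and on libraries. For the alternatives that follow, shares of all peaks called are not given, so the counts have no background beside them. TMM factors taken from peaks at gene starts put the median of all peaks at 0.20 on the log2 scale. With them, 17 of the 87 rose and 0 fell. Library totals alone put that median at 0.09, and 16 rose and 5 fell. Without replicate 4 of both groups 6 rose and 11 fell; 6 rose without sorbitol 4, 8 without sorbitol 2, 8 without vehicle 3 and 7 by the DESeq2 test, while 6 fell without vehicle 1.

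Counts by baseline strength are given beside those of all peaks of the same class, with no test of the difference. Among the 11 peaks in the top decile, 1 rose and 5 fell, where 5.51% and 48.4% of all top-decile peaks did. Among the 37 above the median, 8 rose and 4 fell, against 9.05% and 18.1%. Among the 39 below it, 4 rose and 2 fell, against 23.6% and 2.13%. Of the 7 peaks at gene starts or ends of the 8 genes, 0 rose and 3 fell, against 7.57% and 37.4% of all peaks at gene starts. That class holds annotated starts only, whereas the peaks of LHX1, EYA1 and SALL1 were taken at either gene end. Of all peaks at other gene ends, 10.9% rose and 24.55% fell. Of the 33 other peaks in the gene bodies, 9 rose and 3 fell, against 19.2% and 8.06% of all peaks inside genes. Of the 47 flank peaks 4 rose and 5 fell, against 15.8% and 8.05% of all peaks between genes. The match is loose, because some flank peaks lie inside or at ends of neighbouring genes, which the class between genes leaves out.

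**Figure D2:**
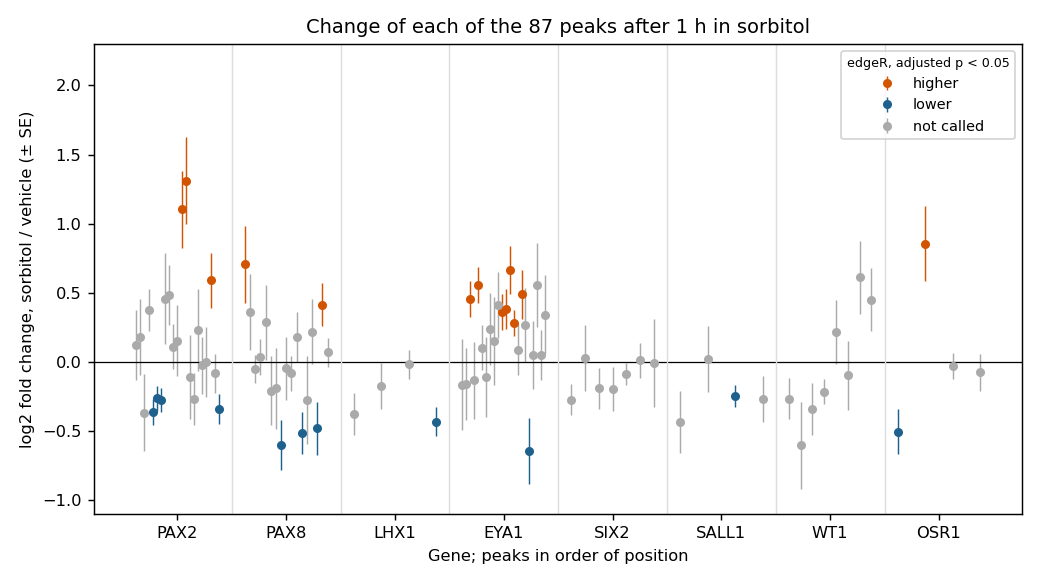
The log2 fold change of each of the 87 peaks, with its standard error, is plotted by gene and in order of position, coloured by the edgeR call. EYA1 holds 7 of the 13 peaks that rose, and the largest changes are the weak PAX2 peaks at 1.31 and 1.10.

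EYA1 was the gene whose window rose as a whole. The counts summed over its 22 peaks were 91.3, 97.1, 92.1 and 90.7 CPM in vehicle 1 to 4 and 104, 114, 114 and 120 CPM in sorbitol 1 to 4. All 4 sorbitol libraries were above all 4 vehicle libraries. The log2 fold change was 0.29 (SE 0.0529, edgeR adjusted p = 1.32e-06 over 19551 protein-coding loci). Of these loci, 9.3% rose and 59.1% fell, with a median of -0.20, and the EYA1 value lay at percentile 96.8. Strong peaks weigh most in such sums, and 48.4% of all top-decile peaks fell. The EYA1 window held 1 top-decile peak, and it was not compared with loci of like make-up. In 21 of 21 alternatives EYA1 kept its direction and call, with values from 0.24 to 0.48.

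Within the EYA1 window, 7 of 22 peaks rose and 1 fell, all 8 inside the gene. Of the 17 peaks in the gene body this was 41.2% and 5.88%, against 19.2% and 8.06% of all peaks inside genes. The 17 include the peak near the gene end, a kind that the class inside genes leaves out. A run of 4 neighbouring peaks over 7.28 kb of the gene body all rose, a grouping seen after the values were known. The smallest p-value belonged to another body peak (chr8:71301071-71302055). It had 7.82, 7.11, 8.87 and 10.3 CPM in vehicle 1 to 4 and 9.91, 13.6, 13.6 and 12.9 CPM in sorbitol 1 to 4. Sorbitol 1 fell within the vehicle range and the other sorbitol libraries lay above it. The log2 fold change was 0.56 (SE 0.128, edgeR adjusted p = 0.000731). The strongest EYA1 peak had 19.98 to 21.1 CPM in the vehicle libraries and 20.6, 26.1, 27.0 and 26.4 CPM in sorbitol 1 to 4, so that sorbitol 1 lay within the vehicle range and the other sorbitol libraries above it. In CPM from library totals, all 4 sorbitol libraries lay above vehicle at both of these peaks. Its log2 fold change was 0.28 (SE 0.0944, edgeR adjusted p = 0.0211), and the call was lost without sorbitol 2 (adjusted p = 0.0646), sorbitol 3 (0.0837) or sorbitol 4 (0.0648). The EYA1 peak that fell (chr8:71520111-71520560) changed by -0.65 (SE 0.238, edgeR adjusted p = 0.0342), a call lost without vehicle 2, vehicle 4, sorbitol 3 or sorbitol 4, by the DESeq2 test and with library totals alone. The peak near the gene end was not called, at 0.05 (SE 0.249, edgeR adjusted p = 0.911). The number of EYA1 peaks that rose was 3 without sorbitol 2 or sorbitol 4 and by the DESeq2 test, 4 without vehicle 3 or vehicle 4, and 2 without replicate 4 of both groups.

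PAX2 changed in both directions: 4 strong peaks fell and 3 weaker peaks rose. The strong peak 5250 bp outside the outermost start (chr10:100728944-100730146) had 27.1, 32.1, 32.6 and 30.8 CPM in vehicle 1 to 4 and 23.9, 26.4, 21.3 and 23.6 CPM in sorbitol 1 to 4. Every sorbitol library was below every vehicle library in TMM-scaled CPM, while the groups overlapped in CPM from library totals. It fell by 0.36 on the log2 scale (SE 0.0910, edgeR adjusted p = 0.00180), and with the loess offset it was -0.21 and not called (adjusted p = 0.0535). The peak beside the inner start had 29.5, 26.7, 28.9 and 26.5 CPM in vehicle 1 to 4 and 24.9, 21.4, 22.8 and 23.8 CPM in sorbitol 1 to 4. Here too the groups were apart in TMM-scaled CPM and overlapped in CPM from library totals, and the log2 fold change was -0.26 (SE 0.0897, edgeR adjusted p = 0.0209). That call was lost without vehicle 1 (adjusted p = 0.0736), vehicle 3 (0.0625) or sorbitol 2 (0.0848), and with library totals alone (-0.18, adjusted p = 0.0979). The peak over the inner start itself fell by 0.28 on the log2 scale (edgeR adjusted p = 0.0151). The remaining peak that fell (chr10:100878214-100878913) lies outside the gene, 48271 bp from it. It had 14.4 to 15.8 CPM in the vehicle libraries and 10.9 to 12.9 CPM in the sorbitol libraries. Its groups did not overlap in either TMM-scaled CPM or CPM from library totals. The log2 fold change was -0.34 (SE 0.108, edgeR adjusted p = 0.0128).

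Of the 3 PAX2 peaks that rose, the weakest 2 lie inside the gene. The first (chr10:100797872-100798143) had 1.90, 0.904, 0.413 and 0.753 CPM in vehicle 1 to 4 and 2.00, 2.57, 3.35 and 1.79 CPM in sorbitol 1 to 4, with vehicle 1 inside the sorbitol range. Its log2 fold change was 1.31 (SE 0.317, edgeR adjusted p = 0.00127). The other (chr10:100793151-100793421) had 0.884, 0.904, 1.24 and 1.64 CPM in vehicle 1 to 4 and 2.75, 1.63, 2.85 and 2.82 CPM in sorbitol 1 to 4, with sorbitol 2 level with vehicle 4. Its log2 fold change was 1.10 (SE 0.276, edgeR adjusted p = 0.00185). Both peaks were under the 10th percentile of baseline accessibility. The remaining peak that rose (chr10:100866745-100867078) lies outside the gene, at percentile 58.8, and had 2.24, 2.83, 3.20 and 2.80 CPM in vehicle 1 to 4 and 3.43 to 5.17 CPM in the sorbitol libraries. The groups did not overlap, and the log2 fold change was 0.59 (SE 0.198, edgeR adjusted p = 0.0196). Without sorbitol 1 or sorbitol 4, 2 PAX2 peaks rose. The PAX2 window as a whole fell by 0.14 on the log2 scale (edgeR adjusted p = 0.0108), a smaller fall than the median locus. It was not called with library totals alone (-0.06, adjusted p = 0.226) or in the gene body alone (-0.12, adjusted p = 0.0662).

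**Figure D3:**
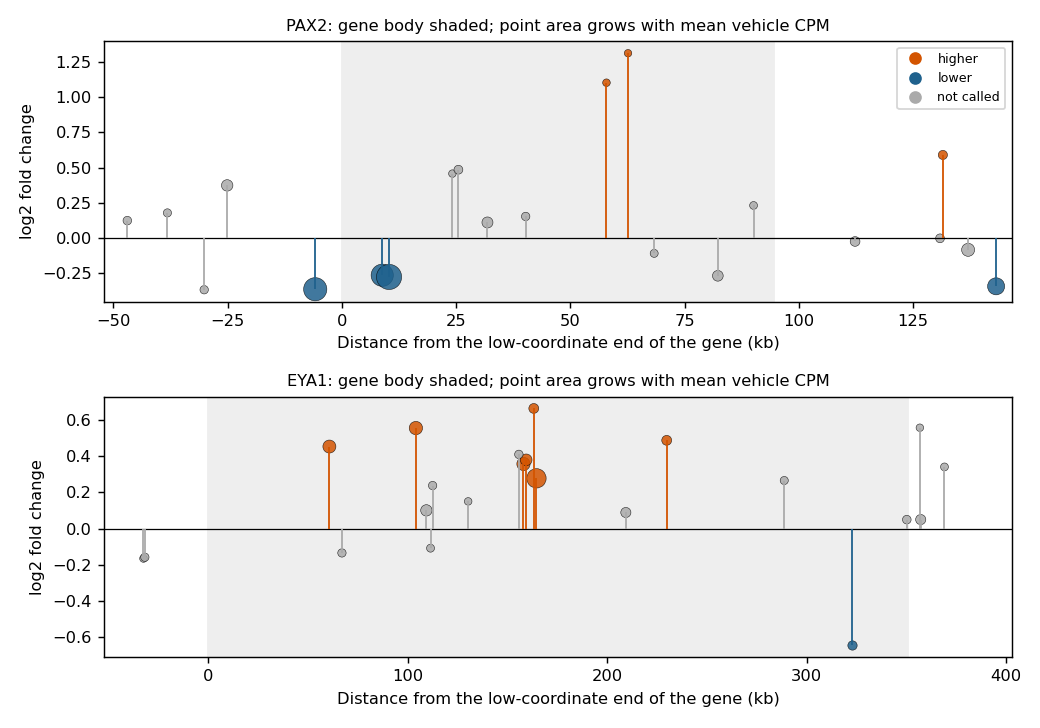
The log2 fold change of each peak at PAX2 and EYA1 is plotted against distance in kb from the low-coordinate end of the gene, with the gene body shaded and point area growing with mean vehicle CPM. At PAX2 the large points lie below 0 and 2 small points in the gene body rise above 1, while at EYA1 most called peaks in the gene body lie above 0.

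SALL1 fell at the peak over its gene end. This peak had 54.5, 55.1, 47.9 and 54.0 CPM in vehicle 1 to 4 and 41.8, 43.0, 49.5 and 43.9 CPM in sorbitol 1 to 4. Vehicle 3 was the low vehicle library and sorbitol 3 the high sorbitol library, and these overlapped. The log2 fold change was -0.25 (SE 0.0815, edgeR adjusted p = 0.0179), and the call was lost without vehicle 1 (adjusted p = 0.0573), vehicle 2 (0.0593) or sorbitol 2 (0.0590). It was also lost with library totals alone (-0.16, adjusted p = 0.0959) and the loess offset (-0.05, adjusted p = 0.619). A smaller flank peak of SALL1 (chr16:51155944-51156227) was at -0.27 and not called (SE 0.169, edgeR adjusted p = 0.238). The SALL1 window fell by 0.25 (SE 0.0618, edgeR adjusted p = 0.000293).

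The start peaks of SIX2 and WT1, the LHX1 peak over a gene end and the OSR1 body peak were not called. SIX2 had 59.7, 70.8, 67.1 and 68.8 CPM in vehicle 1 to 4 and 59.7, 63.4, 59.3 and 67.7 CPM in sorbitol 1 to 4, a log2 fold change of -0.09 (SE 0.0787, edgeR adjusted p = 0.424). WT1 had 27.2, 26.1, 29.6 and 33.6 CPM in vehicle 1 to 4 and 23.4, 24.6, 24.3 and 27.8 CPM in sorbitol 1 to 4, a change of -0.22 (SE 0.0922, edgeR adjusted p = 0.0717). The WT1 peak passed the threshold without vehicle 2 (adjusted p = 0.0447) or sorbitol 4 (0.0230). The LHX1 peak stayed between 14.4 and 15.7 CPM in all 8 libraries, with a change of -0.02 (SE 0.104, edgeR adjusted p = 0.918). The OSR1 body peak had 24.7 to 26.5 CPM in vehicle and 21.7 to 28.2 CPM in sorbitol, a change of -0.03 (SE 0.0914, edgeR adjusted p = 0.848).

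**Figure D4:**
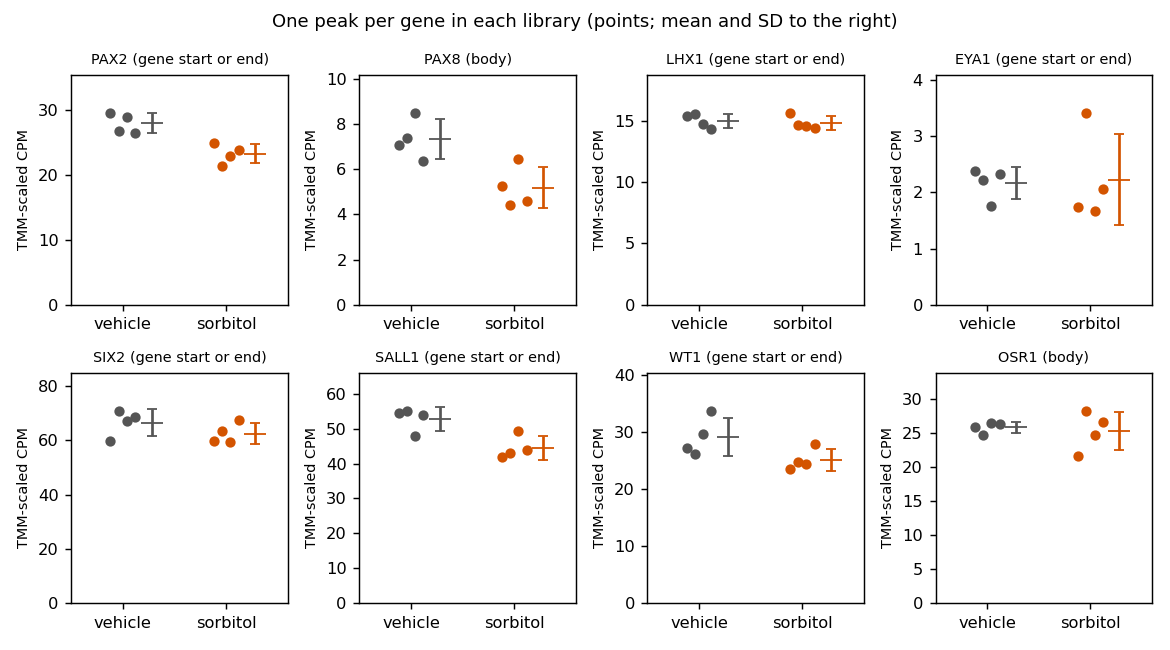
TMM-scaled CPM in each library is shown for 1 peak per gene, with vehicle and sorbitol side by side, each library as a point and the mean with its SD to the right. The PAX2 groups do not overlap on this scale (they do in CPM from library totals), the SALL1 groups overlap through vehicle 3 and sorbitol 3, and the LHX1 groups lie between 14.4 and 15.7.

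OSR1 had a peak in each direction in its flank. The first (chr2:19313095-19313439) had 1.56, 1.63, 1.24 and 0.821 CPM in vehicle 1 to 4 and 2.33, 1.87, 2.51 and 2.82 CPM in sorbitol 1 to 4, and the groups did not overlap. It rose by 0.86 on the log2 scale (SE 0.269, edgeR adjusted p = 0.0124), and the call was lost without sorbitol 4 (adjusted p = 0.0552). The other (chr2:19305608-19306564) fell by 0.51 (SE 0.161, edgeR adjusted p = 0.0139), a call lost without vehicle 1. That library had 8.57 CPM there, and the remaining 3 vehicle libraries had 5.61 to 6.76 CPM. PAX8 had 2 peaks that rose and 3 that fell; 0 rose without vehicle 1, vehicle 2, vehicle 3, sorbitol 1, sorbitol 2 or sorbitol 3, and by the DESeq2 test, and 1 fell without vehicle 3. The strongest PAX8 peak in the gene body fell by 0.51 (SE 0.153, edgeR adjusted p = 0.00840), a call lost without vehicle 3 (adjusted p = 0.0528). No peak of SIX2 or WT1 was called. The SIX2 peak nearest the threshold (chr2:44955520-44956277) was at -0.27 (SE 0.114, edgeR adjusted p = 0.0633) and passed it without vehicle 2, vehicle 4 or sorbitol 4 (adjusted p = 0.0366, 0.0450 and 0.0213). The strongest other peaks of SIX2 (chr2:45014077-45014460) and WT1 (chr11:32439073-32439281) were at 0.01 and 0.21 (edgeR adjusted p = 0.958 and 0.528). In the LHX1 window the called peak (chr17:36948390-36949639) fell by 0.43 (SE 0.103, edgeR adjusted p = 0.00108), with every sorbitol library below every vehicle library, but it lies at an end of the gene AATF.

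Summed over windows, 5 of the 8 genes fell, 1 rose and 2 were not called. LHX1 changed by -0.25 (SE 0.0669, edgeR adjusted p = 0.000585), WT1 by -0.15 (SE 0.0655, edgeR adjusted p = 0.0370) and SIX2 by -0.11 (SE 0.0527, edgeR adjusted p = 0.0494). PAX8 was at -0.03 (edgeR adjusted p = 0.599) and OSR1 at -0.06 (edgeR adjusted p = 0.411). With 59.1% of all loci falling, a fall at 5 of 8 is near the background. The LHX1 fall was not called in the gene body alone (-0.02, adjusted p = 0.886), and the PAX8 body alone fell by 0.21 (adjusted p = 0.0200). The SIX2 call was lost without vehicle 2 (adjusted p = 0.0954), vehicle 3 (0.117), vehicle 4 (0.0608), sorbitol 1 (0.0773), sorbitol 2 (0.0941) or sorbitol 3 (0.128). The WT1 call was lost without vehicle 3 (adjusted p = 0.0534), vehicle 4 (0.183), sorbitol 1 (0.0603) or sorbitol 3 (0.0847), and without the peaks at ends of other genes (-0.07, adjusted p = 0.525). With gene-start factors the values of PAX2, PAX8, SIX2, WT1 and OSR1 turned positive, and only EYA1 and PAX8 were called, both higher.

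**Figure D5:**
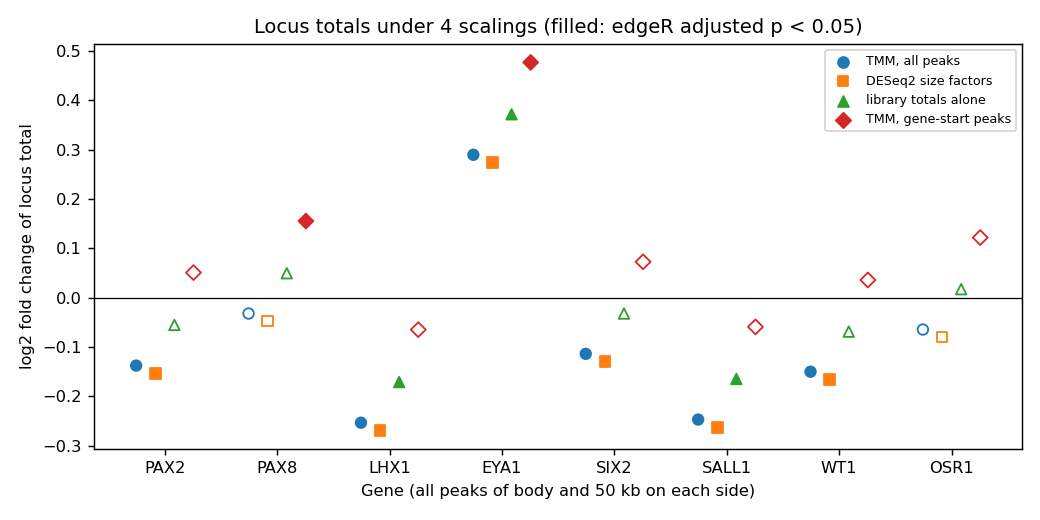
The log2 fold change of the summed counts of each gene's window is plotted under 4 scalings, with filled symbols where the edgeR adjusted p was under 0.05. EYA1 is positive and called under each of the 4, whereas PAX2, SIX2 and WT1 are negative under TMM and positive under gene-start factors.

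Other kidney genes and relatives of the 8 genes were examined in the same windows, and 36 of 37 had a peak (IRX1 had none). Of their 434 peaks, 57 rose and 78 fell (13.1% and 18.0%, against 16.0% and 13.1% of all tested peaks), with a median log2 fold change of -0.08. Among ureteric bud and nephric duct genes 7 of 47 peaks rose and 4 fell, and among nephron progenitor genes 15 of 107 rose and 27 fell. Among early nephron and tubule genes 5 of 63 rose and 11 fell, among podocyte genes 8 of 74 rose and 17 fell, and among relatives of the 8 genes 23 of 145 rose and 19 fell. As summed windows, 6 of these 36 genes rose and 18 fell, against 9.3% and 59.1% of all loci. ITGA8, the integrin subunit of the progenitor mesenchyme, rose by 0.24 (SE 0.0495, edgeR adjusted p = 1.77e-05). FGF8, a growth factor of the early nephron, fell by 0.33 (SE 0.0514, edgeR adjusted p = 1.93e-08). Both were singled out after their values were seen.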

How the data were processed

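The authors deposited raw counts per peak, 1 table for all 8 libraries. The submitters' processing notes name BWA 0.7.17, MACS2 2.2.9.1 and GRCh38. Whether reads or fragments were counted, and whether coordinates count from 0 or 1, is not given in the sources used here, and coordinates are printed as in the table. Columns were matched to libraries by group and replicate number.

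Peaks were matched to RefSeq genes (GRCh38.p14) by exact symbol. In R 4.3.3, edgeR 4.0.16 was run on all peaks that passed filterByExpr (minimum count 10, minimum total 15; 49 removed), with TMM factors, treatment as the only term and Benjamini-Hochberg adjustment at 0.05, and was tested on simulated data. Locus totals summed peaks per protein-coding gene with the same library sizes. Totals of 11522266 to 19831471 counts set the precision. DESeq2 1.42.0, other scalings, filters, windows, blocks and left-out libraries were alternatives.

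The members and lists were chosen with earlier results of these data known. Named peaks were each gene's strongest start peak, strongest other peak and smallest p-value, and any 2-fold call whose groups did not overlap in CPM from library totals, 20 in all. Printed CPM is TMM-scaled, a choice made after both scalings had been seen. With it the rule names 19 and leaves out PAX2 chr10:100793151-100793421.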

Additional observations from a re-analysis of the deposited data

Results flagged for a closer look

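Each group of 4 libraries was examined for a library far from the other 3, over the 20 named peaks and the 8 summed windows, 56 groups in all. Chance flags about 1 in 20, or 2.8 groups. In TMM-scaled CPM 4 groups had such a library, and in CPM from library totals 3 had. The groups are not independent, because the summed windows contain the named peaks. In TMM-scaled CPM vehicle 3 was flagged both at the SALL1 peak over a gene end and over the SALL1 window. That peak held 83.5% of the window's vehicle CPM.

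At the strongest EYA1 peak (chr8:71361511-71362457), sorbitol 1 had 20.6 TMM-scaled CPM against 26.1 to 27.0 in the other sorbitol libraries. At the SALL1 peak over a gene end, vehicle 3 had 47.9 TMM-scaled CPM against 54.0 to 55.1, and 46.8 against 52.5 to 53.5 with library totals. At the same peak sorbitol 3 had 51.2 CPM from library totals against 43.6 to 44.5, and did not stand apart in this way in TMM-scaled CPM. At the weak PAX2 peak chr10:100793151-100793421, sorbitol 2 had 1.63 TMM-scaled CPM against 2.75 to 2.85, and 1.67 against 2.86 to 2.95 with library totals. Over the SALL1 window, vehicle 3 had 58.2 TMM-scaled CPM against 64.8 to 65.2.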

How the results depend on the processing

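The main counts were 13 peaks higher, 11 lower, 2 higher and 0 lower at least 2-fold, and 6 summed windows called, with a median log2 fold change of -0.0023. Scaling by library totals alone gave 5 lower, a median of 0.079 and 3 windows; gene-start factors gave 0 lower, a median of 0.181 and 2 windows, and turned the windows of PAX2 (0.0508), PAX8 (0.155), SIX2 (0.0726), WT1 (0.0358) and OSR1 (0.122, not called in either) positive. The loess offset gave 6 lower and 1 higher at least 2-fold. A mean of at least 50 counts gave 6 lower and 0 higher at least 2-fold, with fewer peaks tested. The DESeq2 test gave 7 higher. At an adjusted p under 0.01, 5 were higher, 3 lower and 3 windows called. The gene body alone gave 6 lower and a median of 0.0946. Without replicate 4 of both groups, 6 were higher and the median was -0.0364. Apart from the changes that fewer peaks, fewer samples or a stricter threshold bring by construction, the cause was not tested. Over all peaks the median log2 fold change was 0.09 with library totals alone and 0.20 with gene-start factors.

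With any 1 library removed there were 6 to 10 higher, 6 to 11 lower, 1 to 2 higher and 0 to 1 lower at least 2-fold, medians from -0.03 to 0.01 and 4 to 6 windows. With the replicate number as a block, 10 were higher, 11 lower, 2 higher and 0 lower at least 2-fold, with a median of 0.0046 and 5 windows; the labels do not say that the number marks a shared culture or day, and same-numbered libraries did not deviate together (correlations -8.04e-05, 0.00671, -0.0308 and -0.133). Of the 20 named peaks, 11 stayed on the same side of the threshold in every alternative run, though values that were not called could change sign, and no called value changed sign. Loess offsets were not run for summed windows. The median mean count of the 87 peaks was 56.5.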

Other observations

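Relatives of the 8 genes, singled out after their values were seen, differed in direction as summed windows. SALL4, a zinc-finger relative of SALL1, rose by 0.30 on the log2 scale (SE 0.0600, edgeR adjusted p = 1.00e-05), and SALL2 fell by 0.41 (SE 0.0532, edgeR adjusted p = 1.30e-10). EYA4 rose by 0.16 (SE 0.0483, edgeR adjusted p = 0.00251), with 12 of its 42 peaks higher, whereas EYA2 fell by 0.39 (SE 0.0625, edgeR adjusted p = 4.96e-08) and EYA3 by 0.22 (SE 0.0510, edgeR adjusted p = 6.93e-05). The differences between relatives were not tested.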
